A study of Mus musculus with 60 samples.

Results

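Both CTCF proteins of one mouse embryonic stem cell (mESC) line were degraded together for 2 h, and nascent transcription was compared with that of control cells of the same line by EU-seq. The labels call these cells only control, and the study's EU-seq methods name DMSO as the alternative to the agents. In this line 1 *Ctcf* allele encodes bTAG-ΔN-CTCF, which lacks the N-terminal region and carries a BromoTag degraded by AGB1, and the other encodes dTAG-CTCF-ΔC, which ends after the zinc fingers and carries GFP and an FKBP12 tag degraded by dTAG13. All groups of this line carry both alleles, so its control cells have no full-length CTCF either. The groups used were 2 control libraries and 2 libraries treated with AGB1 and dTAG13 for 2 h, and, for direct comparison, 2 libraries treated for 2 h with AGB1 and 2 with dTAG13 alone. For these libraries the labels give 100 nM for both agents, whereas the headers of the count columns give 200 nM for dTAG13. Other mESC lines served for comparison. CTCF-YF-AA cells, whose mutated CTCF carries a tag degraded by dTAG13, were controls or received 200 nM dTAG13 for 2 h or 4 h. CTCF-AID cells, whose wild-type CTCF carries an auxin-inducible degron, were controls or received 500 µM IAA for 6 h. Genes entered when their mean count was above 20 in the control or the treated group, which left 13753 of the 27665 transcripts in the table, each standing for 1 gene region, with 13043 gene symbols among them. At that limit, *1700016D06Rik* and *2700046A07Rik* lay just inside with a larger group mean of 20.5 counts, and *1700029J03Rik* and *1700034K08Rik* just outside with 20.0.

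CTCF is a zinc finger protein that binds a long, directional DNA sequence. It stops cohesin as cohesin extrudes chromatin loops, and its N-terminal region contacts cohesin and is needed for that arrest. It also binds in or near many promoters, where its loss can lower or raise transcription of the adjacent gene. EU-seq captures RNA that incorporated 5-ethynyl uridine, here in a 20 min pulse at 0.5 mM, and so reads transcription rather than the pool of stable RNA.

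The line derives from picked colonies of ES-E14TG2a mESCs and is 1 clone, and the study notes that its growth appeared slower than that of lines with full-length CTCF. The control libraries held 8444153 and 8810658 counts and those with both agents 11633383 and 9132228, and the 8 libraries of the line carry a single batch label. The 2 libraries of each group of this line correlated at 0.992 to 0.993 over log counts, and their counts differed by more than sampling noise (chi-square per degree of freedom 1.57 to 2.15). All 10 mESC markers were detected, with summed levels of 4116 to 4165 CPM (counts scaled to a fixed library total) in controls and 3812 to 3822 CPM after both agents, while fibroblast markers summed to at most 1.31 CPM with 3 or 4 of 6 at 0. Transcription of *Ctcf* itself was 286 and 294 CPM in controls and 295 and 293 CPM after treatment. The degrons act on the protein, so this level does not test the labels.

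Loss of both truncations changed far more genes downwards than upwards. In all, 626 genes were lower (4.55% of those tested) and 281 higher (2.04%), of which 87 were lower by at least 2-fold (0.633%) and 24 higher by at least 2-fold (0.175%). A gene was called at an edgeR quasi-likelihood adjusted p under 0.05, and fold changes had the median over expressed genes subtracted, which shifted them by 0.0033 on the log2 scale. Log2 fold changes ran from −0.87 at the 1st to 0.66 at the 99th percentile. Among 8498 expressed genes (mean above 15 TPM, a length-scaled level, over the gene body), 43 had more than a 2-fold decrease, 71 a decrease of 1.5- to 2-fold and 173 of 1.3- to 1.5-fold, against 4, 31 and 79 in the same ranges upwards, while 7646 changed by less than 1.2-fold. Without control replicate 1, control replicate 2 or treated replicate 1, the lower genes numbered 382, 413 and 401, and without control replicate 2 the higher ones numbered 154. DESeq2 called fewer genes in both directions. The labels do not say whether replicates came from separate cultures, so p values measure the spread between these libraries, which may be technical.

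**Figure D1:**
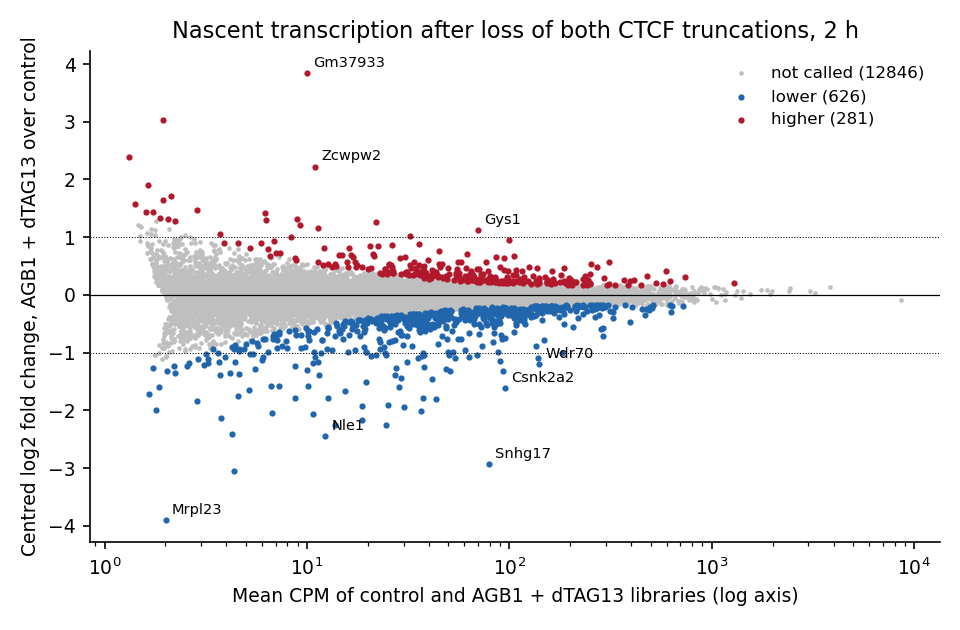
Centred log2 fold change of AGB1 and dTAG13 over control (y axis) against the mean CPM of the 4 libraries (x axis, log scale) for the 13753 genes tested, with 626 lower genes in blue and 281 higher genes in red. Dotted lines mark 2-fold changes. Decreases of at least 2-fold, among them *Snhg17* at −2.94, occur along most of the x axis, whereas most increases of at least 2-fold rest on a few CPM.

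The 8 largest decreases that met the naming rule were at *Mrpl23*, *Snhg17*, *Nle1*, *Dennd6b*, *Dusp12*, *Adprhl2*, *Saal1* and *Inpp5e*. The rule took each gene by its transcript with the most counts and left out *Gm23925* (−3.05), whose region lies inside *Snhg17*. *Mrpl23* (chromosome 7, 142533012 to 142540747), which encodes a protein of the large mitochondrial ribosomal subunit, had 3.48 and 4.07 CPM in controls and 0.259 and 0.219 CPM after both agents, the latter resting on 3 and 2 counts. Its log2 fold change was −3.90 (SE 0.49, adjusted p = 2.87e-07). The treated libraries were far below both controls, and the size of the decrease is uncertain at so few counts.

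*Snhg17* (chromosome 2, 158355307 to 158361510), a host gene of small nucleolar RNAs, fell from 137 and 143 CPM to 17.3 and 19.6 CPM (log2 fold change −2.94, SE 0.08, adjusted p = 1.37e-25). Both treated libraries lay close together and well under the controls. *Nle1* (chromosome 11, 82900768 to 82908411), which acts in assembly of the large ribosomal subunit, fell from 22 and 19.8 CPM to 4.05 and 3.51 CPM (−2.45, SE 0.18, adjusted p = 4.94e-13). *Dusp12*, a dual specificity phosphatase, fell from 37.5 and 43.2 CPM to 6.46 and 10.9 CPM (−2.26, SE 0.15, adjusted p = 1.97e-14). The 2 treated libraries of *Dusp12* differed more from each other than those of *Snhg17* or *Nle1*, without reaching the controls.

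*Adprhl2*, whose product removes ADP-ribose from proteins, had 23.2 and 22.6 CPM in controls and 5.26 and 4.28 CPM after both agents (−2.25, SE 0.17, adjusted p = 6.73e-13). *Dennd6b*, a DENN domain gene, had 7.68 and 6.78 against 1.55 and 1.10 CPM (−2.41, SE 0.30, adjusted p = 1.88e-07). *Inpp5e*, a phosphoinositide phosphatase of the primary cilium, had 16.3 and 18.3 against 4.91 and 3.18 CPM (−2.07, SE 0.19, adjusted p = 2.56e-10), and 6.75% of its region overlaps *Pmpca* on the opposite strand. *Det1*, which stood next at −2.05 (adjusted p = 2.90e-08), was at −2.13 by a shorter transcript inside the same region. Control and treated libraries were apart at *Adprhl2*, *Dennd6b* and *Inpp5e*, as they were at *Saal1*, with 29.4 and 31.6 against 5.95 and 7.90 CPM (−2.16, SE 0.15, adjusted p = 6.66e-14). All 87 genes with a decrease of at least 2-fold had both treated libraries below both controls, which is partly built into the call. Over all 13753 genes tested, 3278 had both treated libraries below both controls and 3195 had both above.

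The 8 largest increases were mostly at genes with few counts in controls. *Gm37933* (chromosome 3, 86142757 to 86145545), annotated as a long intergenic noncoding RNA, rose from 0.600 and 1.92 CPM to 17.0 and 20.4 CPM (log2 fold change 3.84, SE 0.26, adjusted p = 6.85e-14). Its start lies 55 bases from that of *Rps3a1*, which is read the other way and was not called (0.01). The study names *Rps3a1* among promoters whose upstream antisense transcription rose after CTCF loss. *Zcwpw2* (chromosome 9, 117964491 to 118014160) rose from 4.56 and 3.16 CPM to 18.2 and 17.9 CPM (2.22, SE 0.19, adjusted p = 3.21e-11). These were the increases in this group with levels above 10 CPM after treatment, and the treated libraries lay close together. The controls of *Gm37933* rested on 5 and 17 counts, and without control replicate 2 its change was 4.92.

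The other 6 stayed below 4 CPM. *Gm33195* had 0.120 and 0.678 CPM in controls and 3.10 and 3.84 CPM after both agents (3.03, adjusted p = 2.57e-05), and *Parp3*, a poly(ADP-ribose) polymerase family gene linked to DNA repair, had 0.480 and 0.339 against 1.72 and 2.74 CPM (2.38, adjusted p = 0.00216). *Apln*, which encodes the ligand apelin, had 0.360 and 1.02 against 3.02 and 2.19 CPM (1.90, adjusted p = 0.00491). The remaining 3 were *Gm6209* (1.72, adjusted p = 0.00235), *4930558K02Rik* (1.64, adjusted p = 0.00615) and *Ropn1l*, a gene of the sperm flagellum (adjusted p = 0.0278). Leaving out 1 control library ended the call of *Parp3* (without replicate 2, adjusted p = 0.062), *Apln* (without replicate 1, 0.155), *Gm6209* (without replicate 1, 0.0655), *4930558K02Rik* (without replicate 2, 0.147) and *Ropn1l* (without replicate 1 or 2, 0.0511 and 0.307). Without control replicate 1 or 2, the change of *Gm33195*, whose controls held 1 and 6 counts, was 2.32 or 4.70, and without control replicate 2 that of *Apln* was 2.83. Of the region of *4930558K02Rik*, 11.3% overlaps *Pigc* on the opposite strand. With more counts, *Gys1*, muscle glycogen synthase, which was named after its value was seen, rose from 40.8 and 46.7 CPM to 98.6 and 92.5 CPM (1.12, adjusted p = 7.06e-14). *Parp3* starts 320 bases from *Rrp9* and *Gys1* 221 bases from *Ruvbl2*. Both neighbours are read the other way and were not called (0.07 and −0.07).

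**Figure D2:**
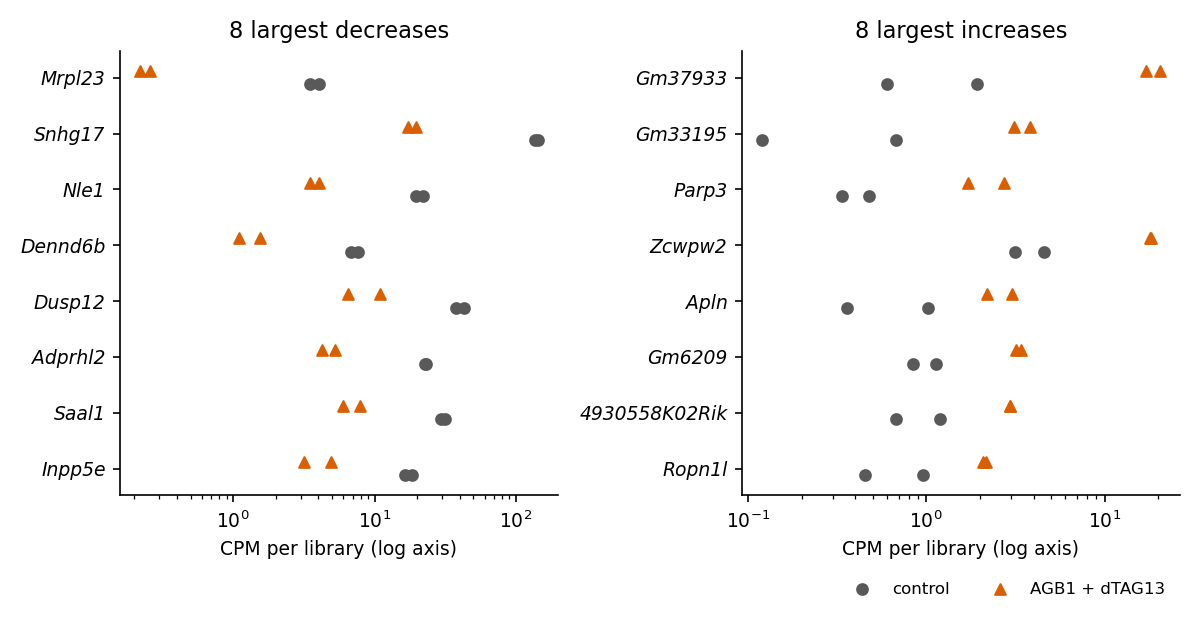
CPM of each library (x axis, log scale) for the 8 largest decreases (left) and the 8 largest increases (right) that met the naming rule, with control libraries as circles and libraries with AGB1 and dTAG13 as triangles. Control and treated points are apart in every gene, as the rule required, and 6 of the 8 increases stay below 4 CPM.

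The promoters of these genes are shown because CTCF reads DNA in 1 direction and the study's question concerns CTCF bound at promoters. RefSeq promoter windows (GRCm38.p6, 250 bases before to 50 after the start) were searched on both strands for the core letters of the CTCF motif (CC, any 3 bases, AG, any 2 bases, GGC) and are printed 5′ to 3′ along the gene with matched letters in capitals. The sequences are those of the 6 genes with the largest decreases, and the 2 with the largest increases, among genes that met the naming rule and whose window starts near the counted start and holds the letters, followed by 2 promoters that the study placed in reporter plasmids.
Dennd6b: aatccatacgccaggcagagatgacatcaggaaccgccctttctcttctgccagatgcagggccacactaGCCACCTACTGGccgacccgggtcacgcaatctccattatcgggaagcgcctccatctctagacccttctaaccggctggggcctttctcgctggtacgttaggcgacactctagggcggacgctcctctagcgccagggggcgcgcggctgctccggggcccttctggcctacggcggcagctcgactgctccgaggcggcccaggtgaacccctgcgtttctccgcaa
Adprhl2: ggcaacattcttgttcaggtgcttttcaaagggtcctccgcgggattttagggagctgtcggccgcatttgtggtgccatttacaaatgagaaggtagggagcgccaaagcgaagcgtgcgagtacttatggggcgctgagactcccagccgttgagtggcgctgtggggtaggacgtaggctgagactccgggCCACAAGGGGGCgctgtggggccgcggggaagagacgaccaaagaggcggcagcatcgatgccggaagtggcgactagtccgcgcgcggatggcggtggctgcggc
Inpp5e: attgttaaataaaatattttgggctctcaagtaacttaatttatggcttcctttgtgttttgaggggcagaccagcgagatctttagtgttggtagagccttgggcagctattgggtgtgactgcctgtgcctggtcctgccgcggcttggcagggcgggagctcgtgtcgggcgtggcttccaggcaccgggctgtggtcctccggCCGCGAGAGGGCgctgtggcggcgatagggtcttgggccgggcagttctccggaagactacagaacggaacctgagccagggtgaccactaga
Det1: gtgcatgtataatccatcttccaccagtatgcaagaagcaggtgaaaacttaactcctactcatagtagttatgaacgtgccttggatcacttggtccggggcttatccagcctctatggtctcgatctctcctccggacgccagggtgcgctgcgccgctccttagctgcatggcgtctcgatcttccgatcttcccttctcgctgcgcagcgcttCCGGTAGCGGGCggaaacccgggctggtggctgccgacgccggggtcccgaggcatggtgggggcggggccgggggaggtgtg
Dph7: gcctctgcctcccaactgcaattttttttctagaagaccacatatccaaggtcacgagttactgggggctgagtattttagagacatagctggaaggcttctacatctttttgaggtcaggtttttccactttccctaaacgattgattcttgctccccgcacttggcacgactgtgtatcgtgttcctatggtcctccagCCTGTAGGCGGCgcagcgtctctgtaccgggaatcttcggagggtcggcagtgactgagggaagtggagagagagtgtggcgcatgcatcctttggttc
Zfp341: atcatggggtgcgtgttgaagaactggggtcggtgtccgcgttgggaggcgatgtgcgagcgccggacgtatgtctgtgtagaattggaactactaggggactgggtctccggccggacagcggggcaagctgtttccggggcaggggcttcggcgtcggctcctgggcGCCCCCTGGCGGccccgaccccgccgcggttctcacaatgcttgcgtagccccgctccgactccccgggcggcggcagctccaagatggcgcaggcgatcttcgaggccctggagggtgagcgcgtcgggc
Apln: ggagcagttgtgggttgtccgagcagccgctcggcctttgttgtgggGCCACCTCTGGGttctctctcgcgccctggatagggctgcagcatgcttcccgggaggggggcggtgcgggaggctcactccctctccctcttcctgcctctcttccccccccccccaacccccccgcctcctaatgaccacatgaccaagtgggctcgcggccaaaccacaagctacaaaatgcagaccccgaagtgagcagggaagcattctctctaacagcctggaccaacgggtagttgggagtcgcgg
Pxylp1: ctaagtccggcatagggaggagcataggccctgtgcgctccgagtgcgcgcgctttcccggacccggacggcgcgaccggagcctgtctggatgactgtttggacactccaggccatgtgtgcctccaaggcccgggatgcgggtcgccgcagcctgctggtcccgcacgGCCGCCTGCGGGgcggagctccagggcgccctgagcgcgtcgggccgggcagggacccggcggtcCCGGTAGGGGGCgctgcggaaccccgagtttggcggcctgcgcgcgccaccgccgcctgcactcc
Rabggta: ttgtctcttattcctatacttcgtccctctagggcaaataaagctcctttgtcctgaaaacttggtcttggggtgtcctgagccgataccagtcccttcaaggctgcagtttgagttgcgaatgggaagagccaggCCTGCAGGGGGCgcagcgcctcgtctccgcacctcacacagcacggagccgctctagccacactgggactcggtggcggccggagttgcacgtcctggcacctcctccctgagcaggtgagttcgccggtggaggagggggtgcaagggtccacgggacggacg
Lsm11: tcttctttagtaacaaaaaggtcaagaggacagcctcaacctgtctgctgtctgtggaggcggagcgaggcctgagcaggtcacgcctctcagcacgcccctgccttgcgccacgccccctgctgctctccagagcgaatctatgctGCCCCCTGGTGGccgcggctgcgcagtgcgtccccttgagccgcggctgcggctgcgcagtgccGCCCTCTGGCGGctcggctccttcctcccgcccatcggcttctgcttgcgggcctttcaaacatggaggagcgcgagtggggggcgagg

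In *Adprhl2* (chr4:126321654-126321953, minus strand) the letters read along the gene and begin 56 bases before the start, in *Inpp5e* (chr2:26409170-26409469, minus strand) 43 bases before it, in *Det1* (chr7:78847162-78847461, minus strand) 33, in *Dph7* (chr2:24962172-24962471, plus strand) 49 and in *Rabggta* (chr14:55722153-55722452, minus strand) 114. Their reading direction was thus shared by 5 genes that fell. In *Dennd6b* (chr15:89196425-89196724, minus strand) and *Zfp341* (chr2:154613118-154613417, plus strand), which also fell, the letters read against the gene, 180 and 81 bases before the start. Among the genes that rose, the letters read against the gene in *Apln* (chrX:48034804-48035103, minus strand) (203 bases before the start) and in *Lsm11* (chr11:45944886-45945185, minus strand, at 103 and 39 bases), while *Pxylp1* (chr9:96889425-96889724, minus strand) held them in both directions.

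Of the genes with printed promoters, *Dph7*, a gene of diphthamide synthesis, had 31.3 and 28.1 CPM in controls and 7.84 and 7.79 CPM after both agents (log2 fold change −1.93, adjusted p = 3.47e-13). The zinc finger gene *Zfp341* (−1.79, adjusted p = 4.78e-08) fell as well. *Det1*, whose product acts with a ubiquitin ligase, had 9.96 and 11.6 CPM in controls and 2.41 and 2.85 CPM after both agents. *Pxylp1*, a phosphatase of proteoglycan synthesis, rose from 2.52 and 4.18 CPM to 8.27 and 9.87 CPM (1.41, adjusted p = 7.09e-05).

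Over all genes with a usable window, the letters read along the gene were more frequent in lower genes, and the letters read against the gene in higher genes. The symbol of 10561 of the 13753 tested genes matched a RefSeq window, and 8410 of these windows began within 100 bases of the counted start. Among them, 18.9% of the windows of 375 lower genes held the letters along the gene, against 8.57% of those of 175 higher genes and 7.92% of all 8410. For genes lower by at least 2-fold the share was 30.4% of 56 windows. Against the gene, the letters were found in 7.73% of lower, 14.9% of higher and 6.27% of all windows. Over all 32851 RefSeq windows, 4.79% held them along and 4.12% against the gene, and 8.61% in either direction. A match is a run of letters and not evidence of binding, and no test was made of these shares. Nor does a missing match show that CTCF does not bind. The windows of the reporter genes *Mrpl23*, *Mrps2*, *Ttc5* and *Polr2c* held none, although the study reports lower reporter activity after mutating their CTCF motifs.

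The matches along the gene also lay in a narrower range in lower genes. Their first bases fell between 150 and 1 bases before the start in most of these windows, with a median of 82 bases before it, namely in 5.33% of windows from 150 to 101, in 7.47% from 100 to 51 and in 3.73% from 50 to 1 bases before it, against 1.45%, 1.88% and 1.52% of all windows. Turned around, 12% of the 409 expressed genes with the letters along the gene were lower and 1.96% higher, compared with 4.02% and 1.84% of the 4679 with no match and with 5.59% and 4.28% of the 304 with the letters against the gene. Without the limit on the distance to the counted start, the share along the gene was 17.9% in lower, 7.87% in higher and 7.80% in all genes.

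**Figure D3:**
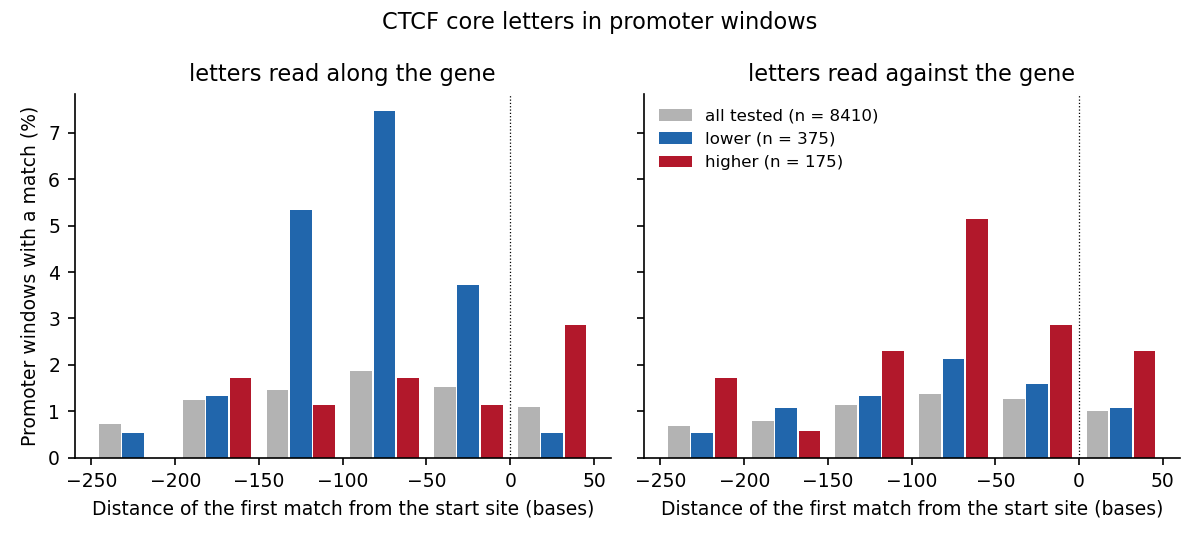
Share of promoter windows (y axis, %) whose first match to the core letters lies in each 50-base bin of distance from the start site (x axis, bases), for letters read along the gene (left) and against it (right). Grey bars are all 8410 windows, blue bars 375 lower and red bars 175 higher genes. Lower genes reach 7.47% between 100 and 51 bases before the start along the gene, and higher genes 5.14% in that bin against it.

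Lower genes differed from all tested genes in other features. In 4.47% of lower genes, a counted transcript on the opposite strand started within 1000 bases upstream and was read away from the gene. This held for 13.2% of higher and 12.4% of all tested genes. The median length was 30.3 kb for lower, 34.0 kb for higher and 25.3 kb for all genes, but only 15.7 kb for genes lower by at least 2-fold. Calls rest on counts, which grow with length, and the median level was 46.4 CPM in lower and 35.0 CPM in all genes. The share of lower genes per chromosome ranged over the autosomes and X from 1.92% on chromosome 13 to 8.00% on chromosome 18, where 18 of the 30 lower regions were clustered protocadherins. These shares are descriptions without a test.

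The genes whose promoters the study tested in reporter plasmids had been chosen for lower or higher transcription in other CTCF lines. All 8 chosen as lower were lower here, with a median log2 fold change of −1.87 beside 0.00 for all tested symbols, and all but *Psmd6* fell by at least 2-fold. *Tab1*, an adaptor of a MAP kinase kinase kinase, fell from 59.0 and 58.4 CPM to 14.8 and 14.3 CPM (−2.01, SE 0.10, adjusted p = 3.38e-17). *Ttc5* fell from 49.5 and 46.7 to 13.2 and 11.8 CPM (−1.94, adjusted p = 9.25e-16), and *Mrps2*, of the small mitochondrial ribosomal subunit, from 65.3 and 70.2 to 19.9 and 18.8 CPM (−1.81, adjusted p = 4.07e-17). Treated and control libraries were far apart in all of these. *Polr2c*, an RNA polymerase II subunit, fell by 1.25 on the log2 scale (adjusted p = 1.72e-12), but 60.4% of its counted region overlaps *Dok4* on the opposite strand. *Rabggta*, a subunit of Rab geranylgeranyl transferase, had 12.5 and 11.9 against 5.26 and 5.16 CPM (−1.22, adjusted p = 1.71e-05), and *Psmd6*, of the proteasome regulatory particle, 61.8 and 64.0 against 42.6 and 39.4 CPM (−0.62, adjusted p = 7.32e-07).

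Both promoters chosen as higher belonged to genes that rose. *Lsm11*, a component of the histone mRNA processing complex, had 43.7 and 49.5 CPM in controls and 76.4 and 77.1 CPM after both agents (0.71, SE 0.08, adjusted p = 9.54e-09). *Ocel1* had 3.24 and 3.96 against 8.36 and 9.43 CPM (1.29, adjusted p = 0.000123), and 65.3% of its region overlaps *Nr2f6* on the other strand. The control promoters' genes gave no call, with *Psmd4*, a ubiquitin receptor of the proteasome, at 102 and 101 against 95.7 and 101 CPM (−0.05, adjusted p = 0.762) and *Actn4*, an actin crosslinker, at 307 and 307 against 297 and 310 CPM (−0.02, adjusted p = 0.909).

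The 7 genes that the study names as essential in cell culture were lower too, with a median of −1.05, and 4 of them by at least 2-fold. *Wdr70* fell from 198 and 192 CPM to 81.1 and 89.5 CPM (−1.20, SE 0.06, adjusted p = 3.81e-17). *Bysl*, needed to build the small ribosomal subunit, fell from 54.9 and 47.1 to 24.3 and 25.1 CPM (−1.05, adjusted p = 3.10e-10), and *Polr3a*, the catalytic subunit of RNA polymerase III, from 98.5 and 90.7 to 52.7 and 49.5 CPM (−0.89, adjusted p = 1.15e-11). *Rbm17*, a splicing factor, fell from 117 and 109 to 67.9 and 72.0 CPM (−0.69, adjusted p = 6.56e-10). *Nle1*, *Polr2c* and *Psmd6* are the other members and are given above. The study chose both lists on CTCF depletions of other lines, which have libraries of their own. The lists are thus not a sample of all genes, and they were taken up here with earlier results of these data known.

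**Figure D4:**
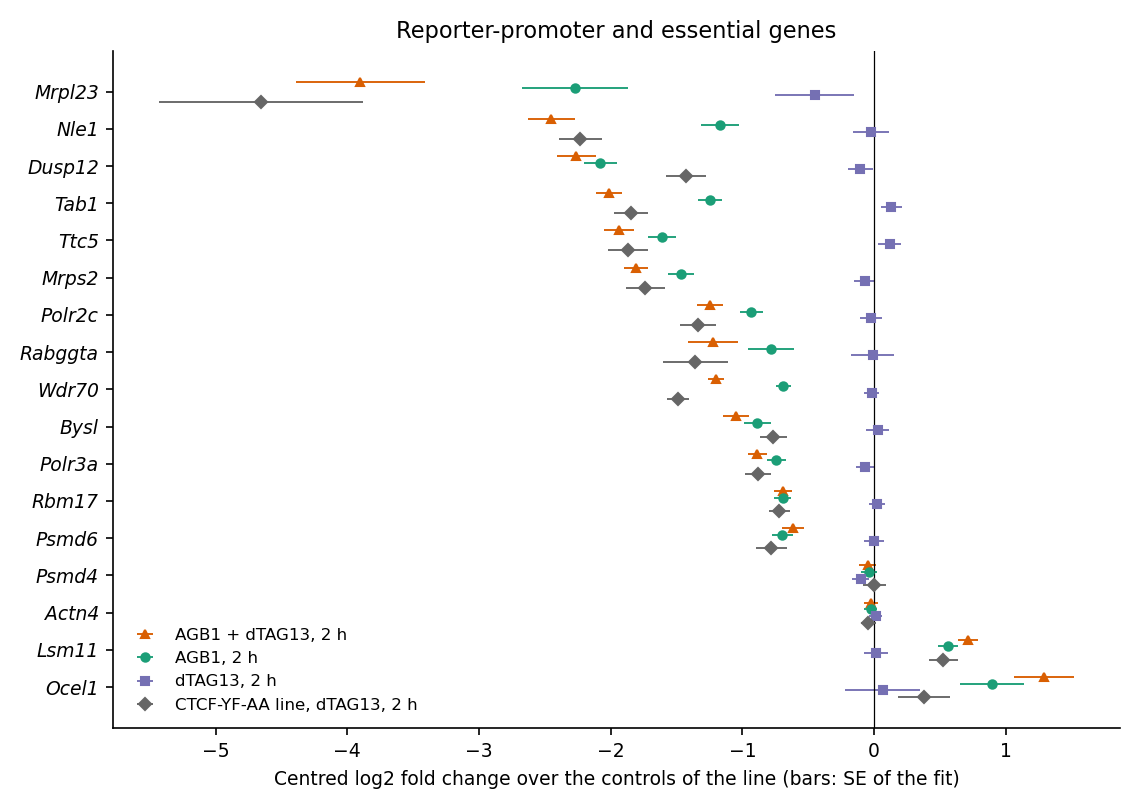
Centred log2 fold change over the controls of the same line (x axis, bars are the SE of the fit) for the reporter and essential genes after AGB1 and dTAG13 (triangles), AGB1 (circles), dTAG13 (squares) and, in the CTCF-YF-AA line, dTAG13 (diamonds), all at 2 h. *Mrpl23* at −3.90 and *Nle1* at −2.45 lead the decreases after both agents, and dTAG13 alone lies near 0 except for *Mrpl23* at −0.45.

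Most other members of the complexes to which these genes belong were not called. Over all regions tested, 4.55% were lower and 2.04% higher. Of 78 mitochondrial ribosomal protein genes tested, 2 were lower (*Mrpl23* and *Mrps2*) and 1 higher, *Mrps16*, which rose from 18 and 19.1 to 34.5 and 33.1 CPM (0.86, adjusted p = 5.13e-07), and the median was 0.01. Among 46 proteasome genes 2 were lower and 0 higher (median 0.05), and among 28 subunits of RNA polymerases I, II and III 3 were lower and 1 higher (median −0.00). The lower polymerase genes were *Polr2c*, *Polr3a* and *Polr2j* (−0.81, adjusted p = 2.00e-06). In these lists the decreases were at single genes, and their number was not tested against the shares over all regions.

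Of 78 cytosolic ribosomal protein genes, 6 were lower and 1 higher (median 0.04), led by *Rpl36* (−0.93, adjusted p = 0.00167), with *Rpl5* (−0.59, adjusted p = 5.83e-10) and *Rplp0* (−0.50, adjusted p = 1.05e-07) also lower and *Rpl7a* higher (0.23, adjusted p = 0.0422). Of 48 ribosome biogenesis genes 3 were lower and 2 higher, with *Nle1* and *Bysl* falling by at least 2-fold and *Dkc1*, of the pseudouridine synthase complex, at 0.21 (adjusted p = 0.0133). Respiratory complex I gave 3 lower and 1 higher of 45, led by *Ndufb7* (−0.94, adjusted p = 6.84e-05) and *Ndufaf2* (0.24, adjusted p = 0.0482). The aminoacyl-tRNA synthetases gave 2 lower and 0 higher of 36, with the mitochondrial enzyme *Aars2* at −1.01 (adjusted p = 2.97e-07), DNA replication 3 and 0 of 40, led by the clamp loader subunit *Rfc3* (−0.38, adjusted p = 0.0214), the snoRNA hosts 1 and 0 of 10 (*Snhg17*) and Mediator 0 and 1 of 30, *Med13* (0.18, adjusted p = 0.0394). Among all 13043 symbols tested, 572 were lower and 269 higher.

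Naive pluripotency genes were lower in a larger share, with 7 of 16 lower and 1 higher and a median of −0.14, beside 4.55% lower and 2.04% higher over all regions tested. *Prdm14*, a repressor that guards the naive state, fell from 82.9 and 83.4 CPM to 59.5 and 57.4 CPM (−0.51, SE 0.07, adjusted p = 2.44e-06). *Pou5f1* fell from 124 and 125 to 91.8 and 100 CPM (−0.38, adjusted p = 5.69e-05), and *Nanog*, one of the central pluripotency factors, from 687 and 693 to 570 and 556 CPM (−0.30, adjusted p = 0.000188). The libraries of both groups were apart in all 3, although none of the decreases reached 1.5-fold. *Sox2* was lower by 0.25 on the log2 scale (adjusted p = 0.00272), and *Dppa3*, a maternal factor of the early embryo, rose from 88.7 and 81.1 to 115 and 111 CPM (0.41, adjusted p = 2.17e-05). Of 10 formative and primed genes edgeR and DESeq2 called 0, with 2 at an unadjusted p under 0.05, although all 10 values were below 0 (median −0.16). In mESC markers, which share genes with the naive list, 4 of 10 were lower and 0 higher. Of 6 tested genes that the study names as enhancer targets, 4 were lower: *Prdm14*, *Sik1* (−0.40, adjusted p = 8.08e-05), *Epha4* (−0.35, adjusted p = 1.34e-05) and *Sox2*.

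The clustered protocadherins, cell adhesion genes whose promoter choice depends on CTCF, were lower in 18 of 21 tested and higher in 0, with a median of −0.50. *Pcdhga1*, the largest decrease, had 45.6 and 46.9 CPM in controls and 31.6 and 30.8 CPM after both agents (−0.57, adjusted p = 3.22e-05). The counted regions of these genes on chromosome 18 lie within one another, so the 18 calls share reads and do not count as 18 measurements. Of 23 p53 targets 5 were lower and 1 higher (median −0.12; 4.55% and 2.04% over all regions tested), with the cell cycle inhibitor *Cdkn1a* falling from 300 and 318 to 252 and 234 CPM (−0.35, adjusted p = 3.23e-05) and *Mdm2* at 0.17 (adjusted p = 0.0422). Clustered histones gave 4 higher and 0 lower of 55 (median 0.07), led by *Hist1h2bn* (0.73, adjusted p = 0.0233) and *Hist2h3c1* (0.69, adjusted p = 0.00263).

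Of 15 CTCF and cohesin genes, *Stag1*, a cohesin subunit, alone was called, rising from 688 and 630 to 849 and 792 CPM (0.31, SE 0.06, adjusted p = 0.000147). *Rad21* stood at 315 and 307 against 303 and 301 CPM (−0.05, adjusted p = 0.725). Beside 4.55% lower over all regions tested, immediate early genes gave 2 lower and 0 higher of 18, led by *Nr4a1* (−0.71, adjusted p = 0.00169), imprinted genes 3 and 0 of 23, led by *Mirg* (−0.45, adjusted p = 0.000404), and BET-sensitive genes 1 and 0 of 10, *Ccnd1* (−0.54, adjusted p = 0.0279). Both edgeR and DESeq2 called 0 of 9 ERK feedback, 19 hypoxia, 18 heat shock and unfolded protein response, 10 RNA exosome, 7 Hox and 2 aryl hydrocarbon receptor genes, of which 4, 1, 6, 0, 1 and 0 had an unadjusted p under 0.05 with edgeR. Of 3 endoderm markers tested *Pdgfra* was lower (−0.80, adjusted p = 0.00927), while *Gata4*, at 5 and 13 counts in controls and 29 and 24 after both agents, was not called (1.28, adjusted p = 0.0523). Of 2 trophoblast markers tested *Cdx2* was lower (−1.24, adjusted p = 0.0211) and *Tfap2c* not called (0.10), and the summed level of all 5 was 85.9 and 94.9 CPM in controls and 92.2 and 98.4 CPM after both agents. Among the genes just listed, the calls of *Rpl36*, *Rpl7a*, *Dkc1*, *Ndufaf2*, *Polr3k* (0.35, adjusted p = 0.0453), *Rfc3*, *Med13*, *Mdm2*, *Hist1h2bn*, *Nr4a1*, *Ccnd1*, *Pdgfra* and *Cdx2* were each lost when some one library was left out. Under DESeq2, 1 p53 target remained lower, 1 imprinted gene was lower, and 0 histone, 0 DNA replication, 0 immediate early and 0 BET-sensitive genes were called.

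The effect of removing both proteins was set beside that of removing each. AGB1 alone gave 203 lower (1.49%) and 89 higher genes (0.653%), and dTAG13 alone 1 lower (0.00734%) and 10 higher (0.0734%). These comparisons use the same control libraries as the joint depletion, so their values are given side by side only. The 87 genes lower by at least 2-fold after both agents had medians of −1.30 after both, −0.97 after AGB1 and −0.05 after dTAG13, and the 24 higher by at least 2-fold had medians of 1.37, 1.18 over the 19 tested after AGB1 and 0.14 over the 14 tested after dTAG13. Since the genes were chosen by their change after both agents, the more extreme medians there are partly built in.

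Compared directly, both agents against AGB1 alone gave 75 lower (0.539%) and 24 higher genes (0.173%), in a contrast without the control libraries, which enter the fit only through normalization and the shared estimate of spread. The 75 came from 69 gene symbols, some with several transcripts that share reads. *Nle1* stood at 9.21 and 9.19 CPM after AGB1 and 17.1 and 23.1 CPM after dTAG13, and the difference between both agents and AGB1 was −1.28 (log2, adjusted p = 0.000313). *Tab1* had 24.5 and 24.6 CPM after AGB1 and 60.0 and 67.3 CPM after dTAG13, with a difference of −0.76 (adjusted p = 5.75e-05). *Snhg17* had 31.0 and 30.2 CPM after AGB1 and 154 and 147 CPM after dTAG13, with a difference of −0.75 (adjusted p = 9.01e-06). At these genes the libraries with both agents lay below those with AGB1, which in turn lay below the controls. For *Dennd6b* (−0.08, adjusted p = 0.97), *Dusp12* (−0.18, adjusted p = 0.781) and *Adprhl2* (−0.52, adjusted p = 0.274) no difference from AGB1 alone was called.

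Of the 75 regions lower than with AGB1 alone, 66 were also lower than in controls, beside 4.55% of all regions tested against controls. Both comparisons use the same 2 doubly treated libraries, so this overlap is partly built in. The median difference of the 75 from AGB1 alone was −0.32. *Prdm14*, at 73.8 and 74.1 CPM after AGB1, differed by −0.35 (adjusted p = 0.00402), and the developmental signals *Fgf4* (−0.34) and *Nodal* (−0.28) and *Nanog* (−0.19) were called as well, chosen for naming after their values were seen. The 75 and 24 became 36 and 10 without AGB1 replicate 1, 18 and 5 without AGB1 replicate 2, 21 and 7 without replicate 1 and 34 and 11 without replicate 2 of both agents. The comparison with dTAG13 alone gave 720 lower (5.18%) and 273 higher genes (1.96%), and 370 to 450 and 134 to 162 without any 1 of its 4 libraries.

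On the log scale the joint change was lower than the sum of the single changes at 13 genes (0.0935%) and higher at 1 (0.00719%). The largest difference was at *Nle1*, whose log2 change of −2.45 after both agents stood beside −1.17 after AGB1 and −0.02 after dTAG13, a departure of −1.25 from their sum (SE 0.25, adjusted p = 0.0226). *Tab1* departed by −0.89 (SE 0.14, adjusted p = 0.000687) and *Snhg17* by −0.85 (SE 0.12, adjusted p = 4.25e-05). *Agfg1*, with an ArfGAP domain, had 192 and 184 CPM in controls, 129 and 138 after AGB1, 204 and 200 after dTAG13 and 88.8 and 87.8 after both, a departure of −0.71 (SE 0.08, adjusted p = 2.19e-07). In each of these 4, the libraries with dTAG13 alone overlapped the controls or lay above them, and those with both agents were the lowest. The others were *1700021F05Rik*, *Api5*, *Wdr70*, *Dnajc11*, *Ccdc141*, *Sept9* in 2 overlapping transcripts, *Epha4* and the transcript ENSMUST00000239091.1, and the gene higher than the sum was *Mycbp2*. Leaving out any 1 control, AGB1 or doubly treated library left 4 to 8 genes lower than the sum, the fewest without AGB1 replicate 2, and 0 to 7 genes were higher, the most without control replicate 2.

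A group of genes of sterol synthesis, which respond to the cell's cholesterol supply, was higher after both agents. Of a list of 23 such genes, drawn up after the values of some members had been seen and therefore described without a test of the list, 13 were higher and 0 lower than in controls (2.04% higher over all regions tested), with a median of 0.38 (0.00 for all genes), and DESeq2 called 9 higher and 0 lower. At an unadjusted p under 0.05, 19 were higher and 0 lower. After dTAG13 alone 6 of 23 were higher (median 0.28), beside 0.0734% over all regions tested. After AGB1 alone edgeR called 0 of 23, with 6 higher and 0 lower at an unadjusted p under 0.05 (median 0.08). *Insig1*, a sensor that retains the pathway's regulator, had 74.7 and 72.8 CPM in controls, 81.3 and 88.7 after AGB1, 108 and 110 after dTAG13 and 117 and 112 after both (0.64, SE 0.07, adjusted p = 2.43e-09). *Msmo1*, an enzyme late in the pathway, had 84.8 and 76.8 CPM in controls, 82.7 and 89.2 after AGB1, 115 and 115 after dTAG13 and 126 and 133 after both (0.67, adjusted p = 5.65e-10). The libraries with dTAG13, alone or with AGB1, were above those without it in both genes.

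Among the 24 gene regions higher with both agents than with AGB1 alone, 9 belonged to genes of the list (*Dhcr7* was counted as a pair of transcripts), with *Msmo1* (0.58, adjusted p = 5.22e-08), *Cyp51* (0.44, adjusted p = 0.00047) and *Insig1* (0.42, adjusted p = 2.59e-05) at the head. In the CTCF-YF-AA line, 18 of the 23 were higher after 2 h and 9 after 4 h of dTAG13 at 200 nM (medians 0.49 and 0.27), beside 1.24% and 1.60% of all regions tested higher and 2.70% and 3.40% lower, and *Insig1* reached 0.98. In the CTCF-AID line after 6 h of IAA, with no dTAG13, edgeR called 0 of 23 in either direction, 0 were higher and 6 lower at an unadjusted p under 0.05, and the median was −0.16. The part of the agent in these values was not tested, and no analysed library of cells without a dTAG protein received dTAG13.

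The changes were also looked up in 2 lines with their own controls. In CTCF-YF-AA cells, both alleles carry mutations that prevent CTCF from holding cohesin and a tag degraded by dTAG13, and in CTCF-AID cells wild-type CTCF carries an auxin-inducible degron. Of the 87 genes lower by at least 2-fold here, 82 were tested after 2 h of dTAG13 in CTCF-YF-AA cells, and 63 of them (76.8%) were lower and 0 higher, against 2.70% lower over all genes tested there. After 6 h of IAA in CTCF-AID cells 66 of 85 (77.6%) were lower and 0 higher, against 2.01%. Of the 24 genes higher by at least 2-fold, 7 of 17 and 8 of 18 were higher, against 1.24% and 1.57%. Of all 626 lower genes, 243 of 615 (39.5%) and 161 of 623 (25.8%) were lower. Over 8407 expressed genes the log2 fold changes correlated at 0.54 with CTCF-YF-AA and 0.42 with CTCF-AID, across genes, which are not independent replicates.

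Tested directly, the change after both agents differed from that after 2 h in CTCF-YF-AA cells at 11 genes in the lower (0.0748%) and 14 in the higher direction (0.0952%). *Inpp5e* fell by 2.07 on the log2 scale here and stood at −0.34 there, a difference of −1.72 (SE 0.23, adjusted p = 7.77e-08), and *Snhg17* fell by 2.94 and by 2.00, a difference of −0.93 (SE 0.13, adjusted p = 2.07e-07). *Stag1* was at 0.31 here and −0.02 there, a difference of 0.34 (SE 0.07, adjusted p = 0.0177). The CTCF-YF-AA libraries are labelled as EU-seq and those of the line with both truncations as stranded EU-seq. *Inpp5e*, which overlaps *Pmpca* on the opposite strand, had 46.1 and 44.2 CPM in the controls of the CTCF-YF-AA line, against 16.3 and 18.3 CPM. dTAG13 was at 200 nM in that line, and these and other differences between the lines and their libraries cannot be told apart from the CTCF protein. Leaving out any 1 of the 8 libraries other than CTCF-YF-AA control replicate 2 left 2 to 7 and 3 to 8 genes.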

How the data were processed

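EU-seq was analysed in the 8 stranded libraries of the line with both truncations. For comparison it was analysed in CTCF-YF-AA mESCs (2 libraries each of control, 2 h and 4 h of dTAG13) and in 8 libraries of CTCF-AID mESCs. The authors trimmed reads (cutadapt), mapped them with bwa meme against the mm10 build, dropped alignments of low quality (SAMtools, version 1.4 in the submitters' processing notes) and those on rRNA or tRNA (bedtools), and counted what remained per gene region with HTSeq. The deposited values are these raw counts, with replicates apart. Whether gene counting used strand is not stated, so reads of genes that overlap on opposite strands cannot be told apart. Reads over introns and exons count alike, so long genes rest on more reads.

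Counts were analysed here in R 4.3.3. Genes with a mean count above 20 in either group were tested with edgeR 4.0.16 (TMM, quasi-likelihood F test, two-sided, Benjamini-Hochberg adjustment over all genes tested). The median log2 fold change over expressed genes was subtracted, and a call needed the same sign before and after. CPM are TMM-normalized over the 4 libraries of the main comparison, and over all 8 libraries of the line for AGB1 and dTAG13 alone. SE is the log2 fold change over the square root of F. Contrasts against AGB1, dTAG13 and their sum were fitted on the 8 libraries, the contrast with CTCF-YF-AA on 8 libraries of both lines, and CTCF-AID with library type as a covariate. Gene names and positions came from a gene annotation that matched 27455 of 27665 transcripts.

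Named genes are the 8 largest decreases and increases among calls of at least 2-fold with a mean of at least 1 CPM, groups apart, and the region not mostly inside another gene, each gene by its transcript with the most counts, all reporter and essential genes, *Ctcf*, the called extremes of each list and the genes at the count limit. The members and lists were chosen with earlier results of these data known. Alternatives were DESeq2 1.42.0, its size factors, no count filter, no centring, a replicate block, genes up to 240 kb, a length trend, all 8 libraries in the fit, and each library left out. Only the edgeR fit of the main comparison was tested on simulated counts, with changes placed in genes of higher count. The other contrasts and the alternatives were not simulated. Interpretation is limited by 2 libraries per group. Results for some genes are not reported here.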

Additional observations from a re-analysis of the deposited data

Results flagged for a closer look

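The same depletion time in 2 CTCF lines gave changes that differed by a direct test at 25 genes, 11 with a larger decrease or smaller increase here than in the CTCF-YF-AA line and 14 with a larger increase or smaller decrease (edgeR, adjusted p under 0.05). Both DESeq2 and the replicate block gave 2 and 3, and leaving out 1 library gave 2 to 15 and 3 to 17. Among the named genes these were *Inpp5e* (difference −1.72 on the log2 scale), *Snhg17* (−0.93) and *Stag1* (0.34). *Inpp5e*, which fell to 4.91 and 3.18 CPM after both agents, was lowered less by AGB1 alone, at 8.50 and 8.27 CPM.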

How the results depend on the processing

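Of 637 values of the 54 named genes under the alternatives, 584 kept direction and side of the threshold and 51 lost significance. The sign changed for 2 values near 0, neither called, at *Ctcf* (−0.0017 without control replicate 1 to 0.0387 without control replicate 2) and *Actn4* (0.0118 without replicate 1 to −0.0498 without replicate 2 of both agents). DESeq2's Wald test called 267.0 lower and 94 higher genes after both agents and 11 higher by at least 2-fold. It gave 39 lower and 14 higher against AGB1, 353 and 111 against dTAG13, 8 and 0 against the sum of the single changes, and 2 and 3 against CTCF-YF-AA, and it set the adjusted p of 7 named genes of low count to missing. Without the count filter, 44 genes were higher than with AGB1 and 22 lower and 10 higher than the sum. The replicate block gave 697 lower and 360 higher genes after both agents, 168 and 60 against AGB1, 24 and 8 against the sum and 2 and 3 against CTCF-YF-AA. Deviations of same-numbered libraries correlated at −0.0086 to 0.014 between controls and treated groups, and at 0.077 to 0.117 among the treated groups. Fits other than the replicate block did not pair samples by these numbers. Leaving out each library gave 382 to 505 lower and 154 to 209 higher genes, 80 to 91 and 16 to 28 at 2-fold or more, 18 to 36 and 5 to 11 against AGB1, 370 to 450 and 134 to 162 against dTAG13, 4 to 11 and 0 to 7 against the sum, and 2 to 15 and 3 to 17 against CTCF-YF-AA. Where a group keeps 1 library, that library is assumed to vary like the others. The causes of these differences were not tested, and leaving out a library changes both the number of libraries and which ones remain.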
